A study of Rattus norvegicus with 8 samples.

Results

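The genes described here are 10 members of the RGS family, the regulators of G protein signalling: Rgs1, Rgs2, Rgs3, Rgs4, Rgs5, Rgs7, Rgs10, Rgs14, Rgs16 and Rgs19. They were taken as the array probes that carry these gene names in the scanner files, which gave 12 of the 30367 probes of the array, with 2 probes each for Rgs2 and Rgs3 and 1 for every other gene. Ovary RNA from immature female rats was hybridised to 1-colour (Cy3) Agilent arrays, with 4 arrays for each label. The control label stands for rats given only a phosphate buffer with albumin, and the PMSG label for rats given 50 IU of pregnant mare serum gonadotropin (PMSG), which acts mainly like follicle-stimulating hormone, in a volume of 0.2 ml. Injection was subcutaneous at 26 days of age and the ovaries were collected after 48 h, when the rats were 28 days old. The labels give no strain, and nothing in them says whether the 4 replicates of a group came from separate rats, so the p-values below measure the spread between these samples, which may be technical.

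Hormone receptors of the ovary, including those for follicle-stimulating and luteinising hormone, signal through heterotrimeric G proteins. A G protein alpha subunit is active while it holds GTP, and RGS proteins speed up GTP hydrolysis by alpha subunits of the Gi and Gq classes, which ends the signal. Members differ in the alpha subunits they act on, in the domains around the shared RGS domain and in the cells that express them.

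All 8 arrays lay on 1 slide with 1 scan day. The 75th percentile of the processed signal ran from 768.9 to 1103, and from 80.8% to 84.5% of probes were well above background. PMSG-labelled array 4 stood somewhat apart: correlations across probes among arrays labelled PMSG ran from 0.977 to 0.991, and from 0.985 to 0.991 without it. Markers of the ovary were present on all 8 arrays, among them Inha and Foxl2 of granulosa cells, Cyp17a1 of theca cells and Zp3 of oocytes. Several transcripts generally known to be raised by gonadotropins were lower in the arrays labelled PMSG. The log2 differences were -2.75 for Star, -3.36 for Cyp11a1, -1.93 for Lhcgr and -4.08 for Areg, with limma adjusted p-values from 2.32e-04 to 0.00541. Ereg was at least 18.3-fold lower. It was well above background on 0 of the 4 PMSG-labelled arrays and entered the test through the control-labelled arrays alone. Its limma adjusted p of 1.16e-05 belongs to the log2 difference of -6.13 without that bound, which ran from -6.29 to -2.11 over 16 alternative settings. Pgr had a log2 difference of -0.60 (limma adjusted p = 0.261). The directions given here are therefore those of the labels alone. Whether the labels were exchanged was not tested, and an exchange would turn every sign given here.

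The probes whose values carry the results are 60 bases long and are shown here 5′ to 3′, as they stand in the scanner files, because they fix which part of each transcript was measured. The first line is the whole Rgs19 probe (rn4, chr3:170840376-170840435, minus strand), the member with the largest difference. The second is the Rgs2 probe of NM_053453 (rn4, chr13:57891896-57891955, minus strand), with capitals on the TGA that closes 1 of its reading frames. The others are the last 30 bases of the 2 Rgs3 probes, that of ENSRNOT00000059181 (rn4, chr5:79661488-79661547, plus strand) and that of NM_019340 (rn4, chr5:79708975-79709034, plus strand). In the NM_019340 line the capitals mark the letters AATAAA, known as a polyadenylation signal.
Rgs19: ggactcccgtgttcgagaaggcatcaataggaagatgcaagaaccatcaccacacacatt
Rgs2: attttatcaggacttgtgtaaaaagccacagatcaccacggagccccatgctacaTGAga
Rgs3 of ENSRNOT00000059181: acctcatcaggacagactctgattggctga
Rgs3 of NM_019340: gggggcaAATAAAaggcctgtgttattctc

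Levels are log2 signals minus the 75th percentile of the array, so that 0 is the signal of a probe at that percentile, and a difference of 1 is a 2-fold change. Probe levels are compared between arrays only, since the brightness of a probe also depends on its sequence. By the rule that at least 0.5 of a probe's spots stand well above background, all 12 probes did so on each of the 8 arrays. All entered the test, a limma fit over 25303 probes with Benjamini-Hochberg adjustment and a threshold of 0.05. In whole-ovary RNA, fewer cells of a type and less RNA per cell cannot be told apart.

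By the brightest probe of each gene, Rgs1 was higher in arrays labelled PMSG, Rgs3 and Rgs19 were lower, and 7 of the 10 genes did not pass the test. This is 30% of the members, where 37.2% of 16591 named genes passed (20% higher and 17.2% lower). Of the 12 probes, 4 passed, 2 higher and 2 lower, or 33.3%, against 34.2% of all tested probes (17.6% higher and 16.6% lower). The same 4 probes were those whose values did not overlap between the labels, and 36.6% of all probes were separated in this way (17.9% higher and 18.6% lower). No member differed by 2-fold or more. Of all named genes 12.2% both did so and passed, and with 10 members a count of 0 is near that share. The median log2 difference over the 10 genes was 0.27, against 0.12 over all named genes, and the median size of the difference regardless of sign was 0.33, against 0.39.

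The counts depended on the scaling and on PMSG-labelled array 4. Quantile normalization left 1 gene (Rgs19) past the threshold and median centring left 2, both lower in arrays labelled PMSG. Over all probes, median centring turned 4452 higher and 4206 lower calls into 2914 and 5534, and moved the median log2 difference from 0.11 to -0.05. Without PMSG-labelled array 4 the calls over all probes were 6982 higher and 4400 lower, and 5 of the 10 members passed, 3 of them higher (Rgs1, Rgs7 and Rgs16). Without control-labelled array 1, control-labelled array 2 or PMSG-labelled array 1, 2 of the 12 probes passed in each case.

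**Figure D1:**
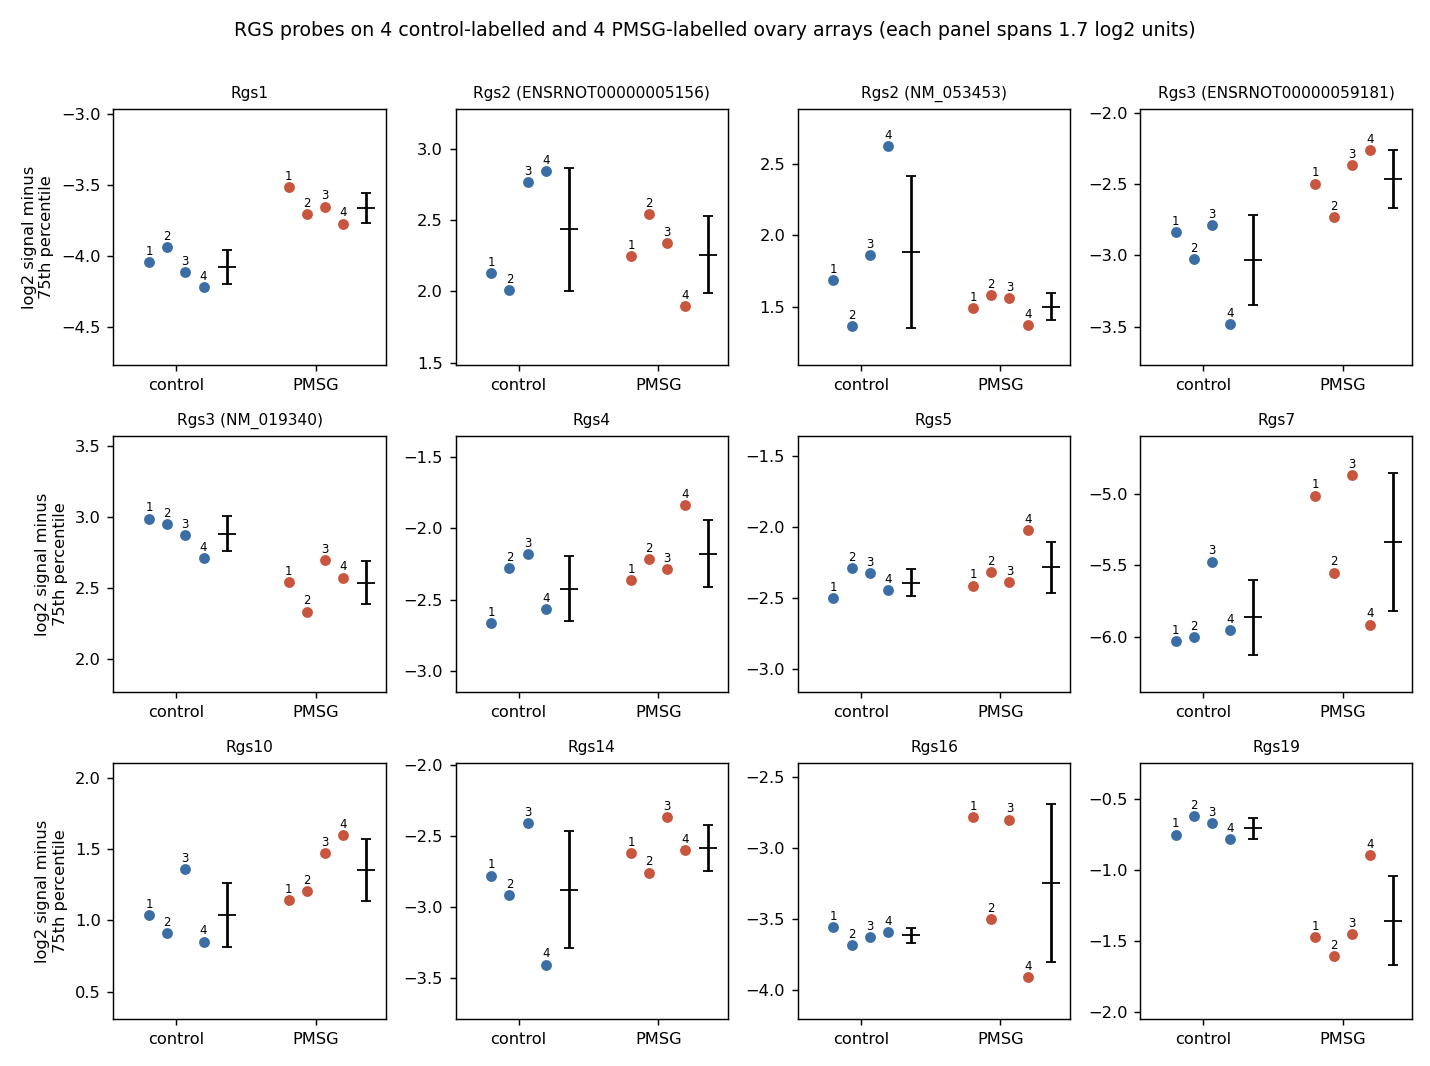
Level of each RGS probe (log2 signal minus the 75th percentile of the array, vertical axis) on the 4 control-labelled and 4 PMSG-labelled arrays, with replicate numbers beside the points and the mean ± SD as black bars. Each panel spans the same height; the 2 labels are separated for Rgs1, both Rgs3 probes and Rgs19 and overlap in the other 8 panels.

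Rgs1, Rgs2, Rgs3, Rgs4, Rgs5 and Rgs16 belong to the R4 subfamily, mostly small proteins with little beyond the RGS domain. Rgs1 is best known from lymphocytes, where it dampens signalling by chemokine receptors. Its probe (rn4, chromosome 13, 58121355 to 58121414) read -4.04, -3.94, -4.11 and -4.22 on control-labelled arrays 1 to 4 and -3.52, -3.71, -3.65 and -3.77 on PMSG-labelled arrays 1 to 4. All PMSG-labelled values lay above all control-labelled values, by at least 0.17. Rgs1 was 1.33-fold higher in arrays labelled PMSG (a rise of 0.42 in log2, SE 0.10, limma adjusted p = 0.0152; -3.66 ± 0.11 against -4.08 ± 0.12, SD, n = 4). The call was lost under quantile normalization (0.20, adjusted p = 0.209) and median centring (0.25, adjusted p = 0.137), in a range of adjusted p from 0.0109 over 17 alternatives.

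Markers of several cell types differed between the labels alongside Rgs1, and are set against the 20% of all named genes that were higher and the 17.2% that were lower. Of the lymphocyte list 5 of 7 genes were tested and 2 rose in arrays labelled PMSG (Cd3d and Cd3g), while Cd2 and Ms4a1 were well above background on no array. Cd3g, a subunit of the T cell receptor complex, had a log2 difference of 1.46 (limma adjusted p = 0.0161). The summed signal of the list, in units of the 75th percentile of the array, was 0.599 to 0.816 in arrays labelled control and 0.930 to 2.05 in arrays labelled PMSG. Cd3d, the brightest probe of the list, had the largest part in this sum. Cd3e, Cd79b and Lck did not pass. Of the macrophage and leukocyte list 4 of 8 genes rose (Ptprc, Cd68, Aif1 and Laptm5), the others did not pass and Cd14 was at -0.29, and the sum ran from 10.1 to 12.8 and from 14.3 to 16.9. All 7 oocyte markers rose, with a median log2 difference of 1.97, and their sum ran from 2.96 to 5.30 in arrays labelled control and from 10.3 to 22.3 in arrays labelled PMSG. None of these 3 sums overlapped between the labels, and of all single probes 36.6% were separated in this way. The endothelium sum was separated too but lay lower, at 17.4 to 18.8 in arrays labelled PMSG against 21.3 to 24.8. The pericyte, smooth muscle, granulosa cell and theca cell sums overlapped. The other ovary markers went in both directions. In the granulosa cell list 1 of 6 genes rose, Amh, a hormone of granulosa cells in small follicles, by 3.03. In the same list 2 fell, with log2 differences of -1.47 for Nr5a2 and -1.32 for Inhba. In the theca cell list 1 of 3 genes rose, the peptide hormone Insl3 by 2.60, and 1 fell, Lhcgr with -1.93. The part of any of these cells in the differences of Rgs1 and the other RGS genes was not tested. Rgs18, known from platelets and other blood cells, was not called, with a log2 difference of 0.63 (adjusted p = 0.122), and Rgs13, known from germinal centre B cells, was well above background on 0 of 8 arrays.

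**Figure D2:**
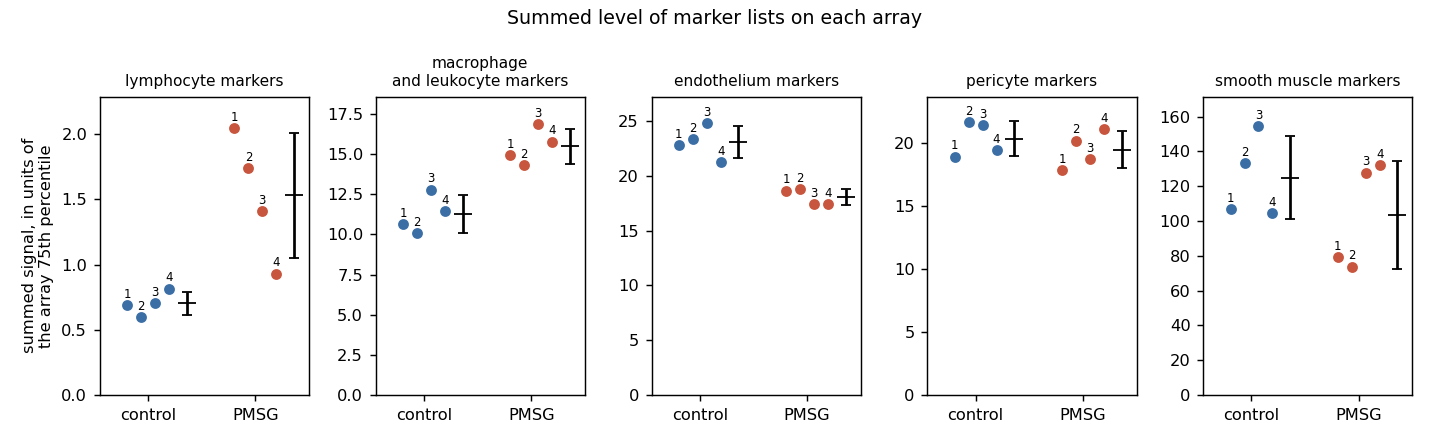
Summed signal of the tested genes of 5 marker lists on each array (vertical axis, units of the 75th percentile of the array, starting at 0; numbers are replicates and black bars the mean ± SD). Lymphocyte and macrophage or leukocyte sums lay higher and endothelium sums lower on all arrays labelled PMSG, and pericyte and smooth muscle sums overlapped. A sum leans on its brightest probe, which is Kdr for endothelium and Cd3d for lymphocytes. Of the 9 endothelium markers 4 fell, 1 rose (Vwf) and 4 did not pass the limma test.

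Rgs2 prefers alpha subunits of the Gq class and has been described as gonadotropin-responsive in the ovary. Its probe of ENSRNOT00000005156 (rn4, chromosome 13, 57890958 to 57891017) read 2.13, 2.01, 2.77 and 2.85 on the control-labelled arrays and 2.25, 2.54, 2.34 and 1.89 on the PMSG-labelled arrays. The probe of NM_053453 read 1.69, 1.36, 1.86 and 2.63, and 1.49, 1.58, 1.56 and 1.37. In both probes control-labelled arrays 3 and 4 were the highest and PMSG-labelled array 4 was the lowest of its label, and the labels overlapped. The log2 differences were -0.18 (95% interval -0.71 to 0.35, limma adjusted p = 0.561) and -0.39 (-0.95 to 0.18, adjusted p = 0.250). No change of Rgs2 was detectable with 4 arrays per label. The call did not change under any of the 17 alternatives for either probe.

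Rgs3 is made as several isoforms, of which long forms carry further domains before the RGS domain. Its probes lie 47487 bases apart in rn4 and are listed under different transcript identifiers; whether a transcript carries both was not tested. The probe of NM_019340, the brighter one, read 2.99, 2.95, 2.87 and 2.71 on the control-labelled arrays and 2.54, 2.33, 2.70 and 2.57 on the PMSG-labelled arrays. The probe of ENSRNOT00000059181, which has 1 spot per array, read -2.83, -3.02, -2.78 and -3.48, and -2.50, -2.73, -2.36 and -2.26. The first was lower on every PMSG-labelled array than on any control-labelled array, by 0.01 at the closest pair, and the second was higher, by 0.05 at the closest pair.

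The probe of NM_019340 fell by 0.34 (SE 0.11, limma adjusted p = 0.0464) and that of ENSRNOT00000059181 rose by 0.57 (SE 0.18, limma adjusted p = 0.0398). Both calls lay close to the threshold. The first was lost under 9 of 17 alternatives (adjusted p from 0.0148 to 0.118) and the second under 11 of 17 (0.0280 to 0.131), with no change of sign in either. The ratio of the probes within an array does not depend on subtracting a percentile or median. The log2 ratio of the ENSRNOT00000059181 probe over the NM_019340 probe averaged -5.91 ± 0.23 (SD, n = 4) on the control-labelled and -5.00 ± 0.11 (SD, n = 4) on the PMSG-labelled arrays. It was higher on all 4 PMSG-labelled arrays, with a change of 0.91 (SE 0.13). This comparison was chosen after the values had been seen and is given without a test, since probes that each separate the labels, in opposite directions, have a ratio that must separate them too. The change was 0.66 under quantile normalization, 0.78 after normexp background correction, and from 0.82 to 1.00 when 1 array was left out. With the probes averaged, Rgs3 as a gene had a log2 difference of 0.11 (limma adjusted p = 0.526).

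**Figure D3:**
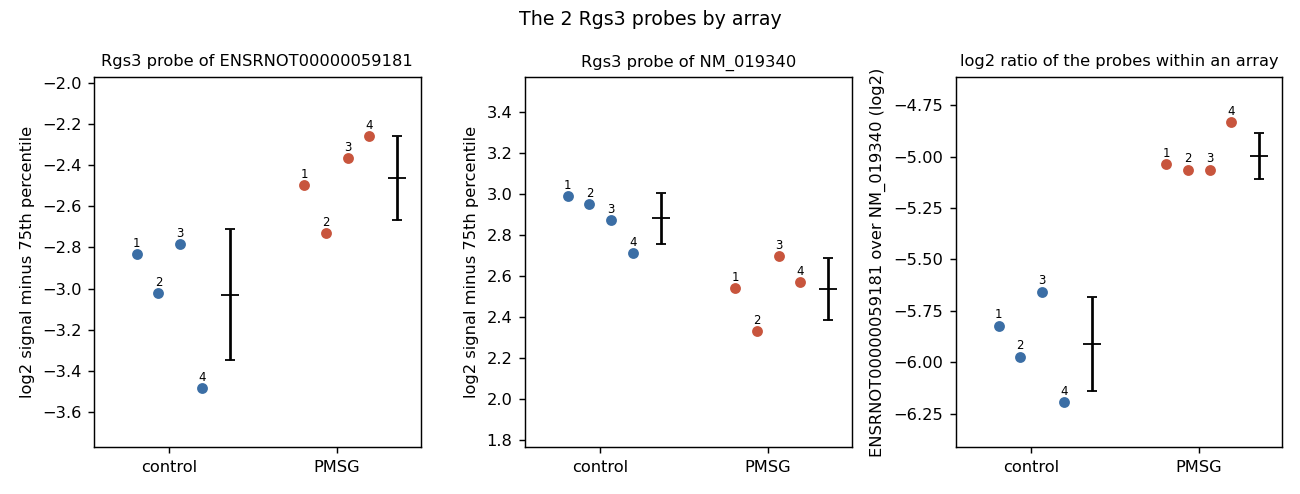
Levels of the 2 Rgs3 probes on each array (left and middle, log2 signal minus the 75th percentile) and their log2 ratio within each array (right), with replicate numbers and the mean ± SD as black bars. The ratio lies between -6.19 and -5.66 on the control-labelled arrays and between -5.06 and -4.83 on the PMSG-labelled arrays.

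Rgs4, Rgs5 and Rgs16 did not pass the test. Rgs4, which acts on Gi and Gq and is best known from brain and heart, and Rgs5, a marker of pericytes and vascular smooth muscle, are direct neighbours on chromosome 13 in the RefSeq gene order. The Rgs4 probe (rn4, chromosome 13, 85534099 to 85534158) lay between -2.66 and -2.18 on control-labelled arrays and between -2.36 and -1.84 on PMSG-labelled arrays. Its log2 difference was 0.25 (95% interval -0.12 to 0.61, limma adjusted p = 0.261). The Rgs5 probe (rn4, chromosome 13, 85480542 to 85482176) covers 1635 bases of the genome with its 60 bases and so crosses a splice junction. Rgs5 read -2.50, -2.29, -2.33 and -2.45 on control-labelled arrays and -2.41, -2.32, -2.39 and -2.02 on PMSG-labelled arrays, where array 4 was the highest and the others lay within the control range. Its log2 difference was 0.11 (95% interval -0.16 to 0.37, limma adjusted p = 0.491), and turned to -0.0037 under quantile normalization and -0.06 under median centring. Of the pericyte markers, Abcc9 fell and Anpep rose, 5 of 7 did not pass, and the summed signal overlapped (18.9 to 21.6 against 17.9 to 21.1). None of 6 smooth muscle markers passed in the limma test.

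Rgs16, which acts on Gi and Gq and is induced in many cell types by stimulation, had the widest spread of any member within the PMSG label. Its probe (rn4, chromosome 13, 68811189 to 68811248) read -3.56, -3.68, -3.63 and -3.59 on the control-labelled arrays and -2.78, -3.50, -2.80 and -3.91 on the PMSG-labelled arrays. PMSG-labelled arrays 1, 2 and 3 lay above all control-labelled arrays and array 4 lay below them all. Rgs16 had a log2 difference of 0.37 (95% interval -0.21 to 0.94, limma adjusted p = 0.281), and of 0.59 (adjusted p = 0.0359) without PMSG-labelled array 4, the only one of 17 alternatives that gave a call.

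Rgs7 was the member of the R7 subfamily, whose proteins pair with the G protein subunit Gnb5 and are best known from neurons. Its probe (rn4, chromosome 13, 90749781 to 90749840) was the one nearest to background, with unscaled signals of 15.9 to 30.5. It read -6.03, -6.00, -5.47 and -5.96 on the control-labelled arrays and -5.01, -5.55, -4.87 and -5.92 on the PMSG-labelled arrays. PMSG-labelled arrays 2 and 4 lay inside the control range. On array 4, 1 of its 2 spots was well above background and the spots differed by an SD of 1.02 in log2. The log2 difference of 0.53 (SE 0.25, limma adjusted p = 0.134) was the largest among the members that did not pass. It passed with the authors' deposited values (0.71, adjusted p = 0.0201), with array weights (0.67, adjusted p = 0.0347) and without PMSG-labelled array 4 (0.72, adjusted p = 0.0282), and its adjusted p reached 0.283 over the other alternatives. Gnb5 itself had a log2 difference of -0.03 (adjusted p = 0.869).

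Rgs10 and Rgs14 belong to the R12 subfamily with Rgs12, which had a log2 difference of 0.19 and did not pass. Rgs10, a small protein abundant in macrophages and microglia that acts on Gi, lay between 0.85 and 1.36 on control-labelled arrays and between 1.14 and 1.60 on PMSG-labelled arrays (rn4, chromosome 1, 187622500 to 187622559). Its log2 difference was 0.32 (95% interval -0.04 to 0.67, limma adjusted p = 0.146). Rgs14, a larger protein that also binds inactive Gi through a GoLoco motif, lay between -3.40 and -2.41 and between -2.76 and -2.37 (rn4, chromosome 17, 15293763 to 15293822). Its log2 difference was 0.29 (95% interval -0.18 to 0.76, limma adjusted p = 0.293). The 2 spots of the Rgs14 probe differed by an SD of 0.06 to 0.80 in log2 within an array. They differed most on control-labelled array 4, which gave the value of -3.40. Neither gene passed under any of the 17 alternatives. The labels overlapped in both.

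Rgs19, also called GAIP, belongs to the RZ subfamily and was found as a partner of the alpha subunit Gnai3. It read -0.75, -0.62, -0.67 and -0.78 on control-labelled arrays 1 to 4 and -1.47, -1.60, -1.45 and -0.90 on PMSG-labelled arrays 1 to 4. The control-labelled arrays lay close together, and all PMSG-labelled arrays lay below them, array 4 by 0.11 and the others by more. Rgs19 was 1.57-fold lower in arrays labelled PMSG (-1.36 ± 0.31 against -0.71 ± 0.07, SD, n = 4; log2 difference -0.65, SE 0.16, limma adjusted p = 0.0143). It was the only member that kept its call under all 17 alternatives, with log2 differences from -0.82 to -0.55 and adjusted p-values from 8.92e-04 to 0.0430. Its partner Gnai3 fell by 0.43 (SE 0.12, limma adjusted p = 0.0219). Gnai3 was 1 of 4 alpha subunits that fell among 13 tested, and 3 rose, among them Gnaz by 0.44 (limma adjusted p = 0.0257). Of all named genes 20% were higher and 17.2% lower.

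The genes with the profile most like that of Rgs19 were sought among 25302 other probes, as the root mean square difference over the 8 arrays after each probe was centred on its own mean. The nearest was Gsk3b, a kinase of insulin and WNT signalling, at 0.040 log2 units, followed by Nxn, Cdr2, Enoph1 and Fkbp10 at 0.076 to 0.095. Their log2 differences ran from -0.63 for Gsk3b to -0.71 for Fkbp10, and in each of the 5 PMSG-labelled array 4 was the highest of its label. All 5 were measured on the same 8 arrays as Rgs19 and were chosen for their likeness to it, so these shared traits follow from the choice. Gsk3b and Nxn lost their calls under 6 and 4 of 17 alternatives.

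**Figure D4:**
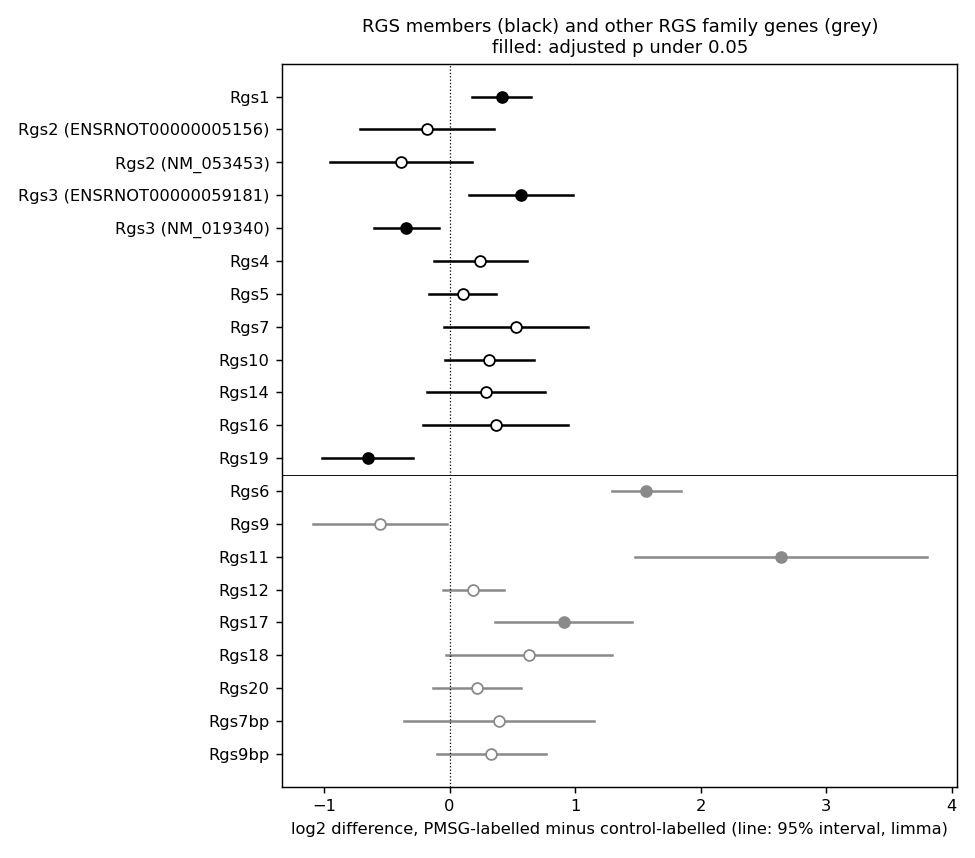
Log2 difference between arrays labelled PMSG and arrays labelled control (points; lines are 95% limma intervals) for the 12 member probes in black and 9 other tested RGS family genes in grey, filled where the adjusted p is under 0.05. The members lie between -0.65 and 0.57, and Rgs11 and Rgs6 lie beyond 1.

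Of 13 other RGS family genes and RGS-binding proteins listed, 9 were tested. Of these 3 rose in arrays labelled PMSG and 0 fell, where 20% of all named genes were higher and 17.2% lower. Before any alternative setting was applied, each of the 3 rose by more than any of the 10 members. Rgs11, an R7 protein, read -7.04, -5.12, -4.90 and -6.12 on control-labelled arrays and -3.23, -2.96, -3.95 and -2.47 on PMSG-labelled arrays, so that it rose by 2.64 (SE 0.50, limma adjusted p = 0.00485). Control-labelled array 1 lay below the dimmest well-above-background spot of that array (-6.37), and without it the difference was 2.22. It was 1.98 with the authors' deposited values and 1.18 after normexp background correction, with the call kept in each case. Rgs6, also of the R7 subfamily, rose from -4.22 ± 0.06 to -2.66 ± 0.20 (SD, n = 4), that is by 1.57 (SE 0.12, limma adjusted p = 1.07e-04), and by 1.01 after normexp correction. A second Rgs6 probe rose as well, by 1.07 (limma adjusted p = 0.0201), with 2 of 4 control-labelled arrays well above background. Rgs17, of the RZ subfamily like Rgs19, had a log2 difference of 0.91 (limma adjusted p = 0.0192), and lost its call under 5 of 17 alternatives, with 0.34 after normexp correction. Rgs9, also of the R7 subfamily, had a log2 difference of -0.56 (adjusted p = 0.0979). Rgs8, Rgs13 and Rgs22 were not tested, with well-above-background signal on at most 1 array, and Rgs21 had no probe by that name.

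The other genes of the pathway were counted by their brightest probe. Over the 7 lists, of 71 genes listed 62 were tested, 16 were higher, 14 were lower and 32 did not pass. Thus 30 of 62 passed, where 37.2% of all named genes did (20% higher and 17.2% lower). With only probes well above background on all 8 arrays, 57 were tested, 15 were higher and 13 were lower. The median log2 difference over the 62 genes was 0.13, against 0.12 over all named genes. Among the alpha subunits 3 of 13 rose and 4 fell. Gna14, of the Gq class, rose by 1.45 (SE 0.26, limma adjusted p = 0.00392) and Gnao1 by 0.73, and their other probes rose too. Gna13 had -0.79 but was well above background on 3 control-labelled arrays and 1 PMSG-labelled array, and came to 0.0050 after normexp background correction. Gnai2, an RGS substrate, fell by 0.26 (adjusted p = 0.0358). The brightest probe of Gnas, the alpha subunit that couples gonadotropin receptors to cAMP, had a log2 difference of 0.03 (95% interval -0.28 to 0.33, adjusted p = 0.891).

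The counts of each list here stand beside 20% higher and 17.2% lower over all named genes. Of 15 beta and gamma subunits tested 4 rose and 3 fell, with Gng8 at 0.98, Gnb3 at 0.95 and Gnb1 at -0.89 the largest. The labels overlapped for Gnb3, whose call was lost under 4 of 17 alternatives, among them leaving out control-labelled array 4 (0.81, limma adjusted p = 0.0522). Of 9 adenylyl cyclases, the enzymes that make cAMP, 2 rose and 2 fell. Adcy8, well above background on no control-labelled array, entered the test through the PMSG-labelled arrays alone. It was at least 2.04-fold higher. Adcy2 rose by 1.03 and Adcy3 fell by 0.85. After normexp correction Adcy8 stood at 0.44, Adcy2 at 0.55 and Adcy3 at -0.31, where Adcy3 lost its call (limma adjusted p = 0.0542). Of the phospholipase C beta enzymes, the effectors of Gq, Plcb3 and Plcb1 fell by 0.48 each and Plcb4 rose by 0.46, and the calls of Plcb1 and Plcb4 were lost under 10 and 9 of 17 alternatives. Among 7 receptor kinases and arrestins, which uncouple receptors from G proteins, 2 rose and 3 fell. Grk5 fell by 1.34 (SE 0.17, limma adjusted p = 7.12e-04), Arrb2 rose by 0.84 (SE 0.10, adjusted p = 6.47e-04) and Grk4 rose by 0.76. Of 5 exchange and release factors, Gpsm3 alone passed in the limma test, at 0.76.

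**Figure D5:**
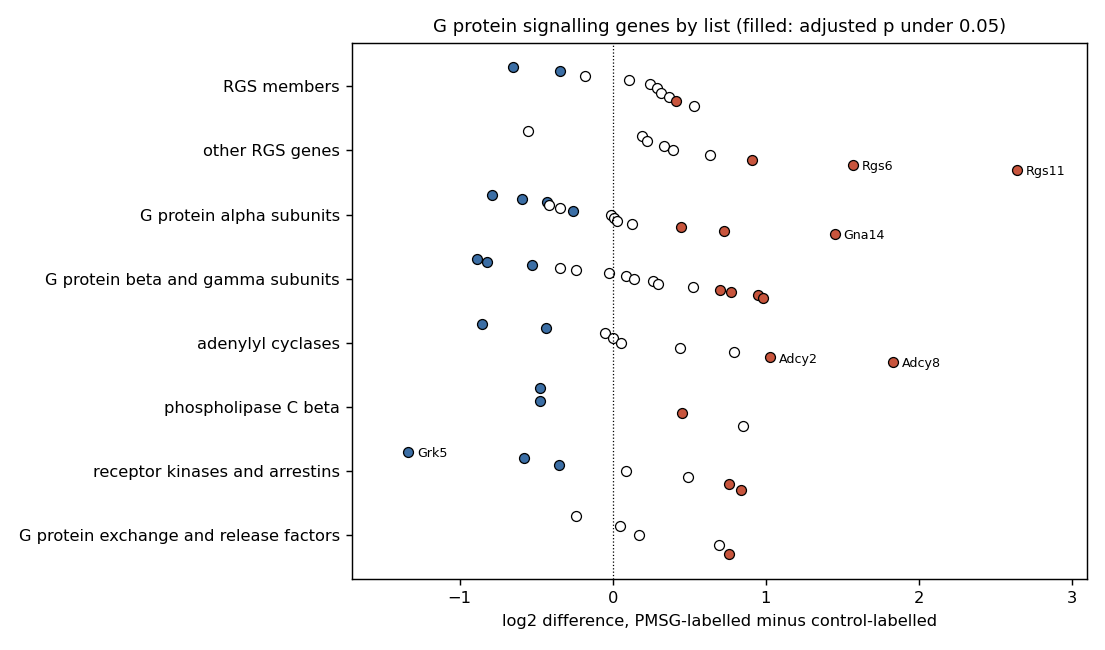
Log2 difference between arrays labelled PMSG and control for the brightest probe of each gene, by list (1 point per gene, filled red for higher and blue for lower at an adjusted p under 0.05, open where the test was not passed). The members and the other genes sit within 1 log2 unit of 0, except Rgs11, Rgs6, Gna14, Adcy8, Adcy2 and Grk5.

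Of the 10 members 6 lie on chromosome 13. In the RefSeq gene order of the GRCr8 assembly Rgs2, Rgs13, Rgs1 and Rgs21 follow each other, Rgs5 is next to Rgs4 and Rgs8 next to Rgs16. Of these neighbours Rgs1 passed the test and Rgs2, Rgs4, Rgs5 and Rgs16 did not. Rgs8 and Rgs13 were not tested, and Rgs21 had no probe by that name. All 10 members had a promoter sequence in the RefSeq table (GRCr8, 250 bases before to 50 after the start). Only the first promoter listed for each member was read, while the shares below count every promoter in that table. The full cAMP response element TGACGTCA was in none of the 10 and in 1.83% of all 33469 promoters, on either strand. The shorter TGACGT, which the full element contains, was in those of Rgs1 and Rgs2 and in 7.94% of all promoters. The stretches that hold it are shown 5′ to 3′ on the gene's strand. The match is in capitals and reads ACGTCA, the reverse complement of TGACGT. The Rgs1 stretch lies at GRCr8 chr13:58573281-58573340 (minus strand) and the Rgs2 stretch at GRCr8 chr13:58352851-58352910 (minus strand). They are shown because the genes are near neighbours of which only Rgs1 passed the test.
Rgs1: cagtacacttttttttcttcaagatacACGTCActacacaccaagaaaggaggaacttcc
Rgs2: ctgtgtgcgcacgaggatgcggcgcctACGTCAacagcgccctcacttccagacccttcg
The GC box GGGCGG, whose matches do not overlap TGACGT by its letters, was in 6 of the 10 and in 33.1% of all promoters. TATAAA was in 3 (Rgs1, Rgs3 and Rgs4) and in 14.2%, and the nuclear receptor NR5A site CAAGGTCA was in none and in 1.52%. These matches are a description of the letters in the window.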

How the data were processed

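Spot intensity was extracted by the authors with Agilent Feature Extraction 11.5.1.1, per the file headers, with background subtraction and detrending within the array. The log2 values per probe that the authors deposited separately were set against the scanner values: per array they correlated at 0.9989 to 0.9997 over the tested probes, with a slope of 0.990 to 0.996 and a median difference of at most 0.0147, and each column's median was -3.21 to -2.82. They are thus log2 signals centred on the 75th percentile with no gene centring, and how dim spots were treated is not given in the sources used here. Probe coordinates are on rn4, per the file headers. Each array had 58717 non-control spots; spots called as outliers were left out, log2 processed signals were averaged per probe, 17 probes without usable spots on some array were dropped, no spot was saturated, and the 75th percentile of each array was subtracted. Probes well above background (at least 0.5 of their spots) on at least 4 of 8 arrays were tested with limma 3.58.1 in R 4.3.3 (lmFit, eBayes, no covariates), after a check of the fit on simulated data. A gene's brightest probe has the highest mean over the 8 arrays. A bound ("at least N-fold") sets the brighter label's mean against the other label's mean, each dim array taking the higher of its own value and its lowest well-above-background spot.

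The members and lists were chosen with earlier results of these data known. Named were all members, up to 3 called genes per pathway list with the largest differences, the 5 nearest profiles and 6 check genes. Gnai2, Gnai3, Gnaz, Gnas, Gnb5, other family genes and markers were added for context after their values were seen. Alternatives were quantile normalization, median centring, normexp correction (offset 50), other filters, deposited values, array weights, blocks for replicate number and slide row, averaged probes, and leaving out each array. Cyp19a1 was not analysed here, and 1 lymphocyte marker is not reported here and was left out of its list. The number of arrays, 4 per label, limits the precision. Deviations of arrays with the same replicate number correlated across probes at 0.0444, 0.0361, 0.183 and -0.0192. Arrays with different numbers were not set beside these, so whether the numbers pair the arrays cannot be told. Columns not used numbered 0.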

Additional observations from a re-analysis of the deposited data

Results flagged for a closer look

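Among 84 groups of 4 values examined, for the members and the other named genes, 7 had 1 array far from the others, with a gap to the nearest array that took an unusually large share of the range. Chance flags about 1 in 20 groups. Of the members only Rgs7 was among them, with control-labelled array 3 at -5.47 against -6.03 to -5.96 (gap 0.864 of the range). PMSG-labelled array 4 was apart for Rgs17, at -5.81 against -4.86 to -4.74 (0.889), for Cdr2, at 1.67 against 1.22 to 1.26 (0.897), and for Fkbp10, at 0.37 against -0.20 to -0.16 (0.934). Cdr2 and Fkbp10 were named for their likeness to Rgs19, in which array 4 is also the highest. Control-labelled array 4 was apart for Gna13, at -6.00 against -6.48 to -6.45 (0.935), and for Cdr2, at 1.90 against 2.02 to 2.03 (0.937). PMSG-labelled array 2 was apart for Areg, at -3.23 against -5.33 to -5.11 (0.897).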

How the results depend on the processing

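The count of member probes that differed was 4, and 1 under quantile normalization, 2 under median centring, 2 with no filter on dim probes, 2 with the replicate block and 2 to 5 when 1 array was left out. The count of member genes was 3, and 1 under quantile normalization and 2 to 5 when 1 array was left out, the 5 without PMSG-labelled array 4. The replicate block, tried although it is not known whether the numbers pair the arrays, gave 7346 differing probes in all and 25 of 62 pathway genes. The signs of 2 named genes turned: Rgs5 to -0.0037 under quantile normalization and -0.0611 under median centring, and Gna13 to 0.0050 after normexp correction; the cause was not tested. Over the 12 member probes and the Rgs3 ratio, 186 of 215 alternative values kept direction and side of the threshold (for the ratio, its size within 1 SD), 22 lost the call, 4 gained one and 2 turned sign, and the ratio moved by more than 1 SD under quantile normalization. The Rgs3 ratio alternatives were chosen after seeing the data. Of the members, Rgs7 alone had a spot not well above background, 1 of 2 on PMSG-labelled array 4.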

Other observations

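Gnas, like Rgs3, had probes listed under different transcript identifiers with unlike values, and the pair was singled out after its values were seen. The brighter probe, of NM_019132, averaged 5.38 ± 0.16 (SD, n = 4) on the control-labelled and 5.41 ± 0.19 on the PMSG-labelled arrays. The probe of NM_001159656 read -4.91 ± 0.16 and -3.53 ± 0.25, which is a rise of 1.38 (SE 0.15, limma adjusted p = 3.93e-04), with no overlap between the labels. The Gnas locus is known to give several transcripts from different promoters. The difference between the probes was not tested.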
